A study of Mus musculus with 2 samples.

Results

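The serotonin, adrenergic and acetylcholine receptor genes were followed across the neurons, glia and vessel cells of a mouse brain data set of single nuclei. Every gene whose symbol begins with Htr and a digit, with Adra or Adrb and a digit, or with Chrm or Chrn was taken, which gave 45 of 30905 genes. Of these, 36 had at least 20 unique molecular identifiers (UMIs, tags that count single RNA molecules) in the matrix and were compared between cell classes. They were 13 of 14 serotonin receptor genes, 5 of 6 adrenergic alpha genes, 3 of 3 adrenergic beta genes, 4 of 5 muscarinic and 10 of 16 nicotinic acetylcholine receptor genes, and Chrna1os, an antisense transcript that encodes no receptor. Genes were matched by symbol, and the only limit on their level was the minimum of 20 UMIs. The set itself was chosen with earlier results of these data known.

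Nuclei came from frozen cerebral cortex of untreated wild-type C57BL/6 mice on a normal diet, and RNA was captured on the 10x Genomics Chromium platform. The labels give 2 samples, mice of 18 months and mice of 2 months, each a pool of 3 animals, and the series text gives ranges of 18 to 22 and 2 to 3 months. A single matrix holds both, with barcodes that end in 1 of 2 suffixes, called library 1 and library 2. The labels do not say which suffix belongs to which age. Values are therefore given for each library, with no test and no comparison of ages. With pooled animals and 1 sample, the intervals printed cover counting error only.

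The libraries held 58108297 and 60547146 UMIs over 8914 and 8587 barcodes, of which 8288 and 7958 nuclei were kept, and 19 barcode sequences occurred in both. Clusters were named from marker genes, and each class name means only that the nuclei resemble that type in its marker genes. Classes were compared where both libraries held 30 or more of their nuclei, which left 31, of which 22 were neurons, 4 glia, 3 vascular and 2 of no clear type. The tissue was labelled as cortex, but nuclei with markers of hippocampal dentate granule cells (6 of 7 markers highest there in both libraries) and of striatal projection neurons were present. Of the named excitatory classes, upper-layer neurons, deep-layer intratelencephalic neurons and layer 6 corticothalamic neurons had 0 markers at their highest level in that class in both libraries. Layer 6b had 1 of 5, middle-layer 2 of 6, near-projecting 3 of 6 and claustrum or entorhinal neurons 3 of 7. The last 3 were Nr4a2, Ntng2 and Gnb4. Of its other markers, Cpa6 and Ndst4 each stood at 1.99 and 9.78 CPM there and Dpyd at 39.9 and 24.5 CPM, and Ndst4 and Dpyd led another cluster. Clusters that met no class by the rule are called by their leading genes. The clusters that make up layer 6 corticothalamic neurons, Pvalb interneurons, oligodendrocytes and striatal neurons with Drd1 were split unevenly between the libraries: of the layer 6 corticothalamic clusters, one held 27 and 392 nuclei and another 326 and 7.

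These receptors read out the diffuse transmitters that reach the cortex from small nuclei of the brainstem and basal forebrain. Most are receptors coupled to G proteins: Htr2, Adra1 and the odd-numbered muscarinic receptors act mainly through Gq and phospholipase C, Htr1, Adra2 and the even-numbered muscarinic receptors through Gi, and Htr4, Htr6, Htr7 and the beta receptors through Gs. Htr3 and the nicotinic receptors are ion channels built of several subunits. In cortex these families are known for setting the excitability of particular neuron types and for control of glia and vessels.

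Of the 36 receptor genes, 23 (63.9%) had their highest level in a neuron class in both libraries, against 23.5% of the 18945 genes with at least 20 UMIs. They comprised 10 of 13 serotonin, 3 of 5 alpha, 0 of 3 beta, 3 of 4 muscarinic and 7 of 10 nicotinic genes. Some of these calls rest on few UMIs: Chrna1, Chrm4 and Chrna3 had 27, 28 and 28 in the whole matrix. A highest neuron class also does not mean that neurons as a whole exceed glia. Pooled neurons stood below pooled glia in both libraries for Htr5a (0.960 and 0.816 times) and Chrna1 (0.288 and 0.710 times), and for no other of the 23. They stood below pooled vascular classes in both libraries for Htr1b (0.917 and 0.838 times). A glial or vascular class was highest in both libraries for 2 genes (5.56%), Adra2a and Chrnb1, against 34.9% of all genes. The count of 23 became 15 without a limit on mitochondrial UMIs. The count of 2 became 0 after thinning each nucleus to 1500 UMIs, 4 with classes of at least 50 nuclei and 7 with named classes only. The same class was highest in both libraries for 11 genes (30.6%), against 36.6% of all genes, and this count became 19, 6 and 18 without the mitochondrial limit, after thinning and with named classes only. For 4 of these, Htr2c, Htr4, Adra1a and Adra1b, the 95% interval in that class lay above the interval of every other compared class in each library (11.1%, against 7.92% of all genes). Levels are the gene's share of all UMIs summed over the class and library, on the CPM scale, with exact 95% Poisson intervals, and they are compared between classes for 1 gene, not between genes, since UMIs are not scaled to gene length.

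**Figure D1:**
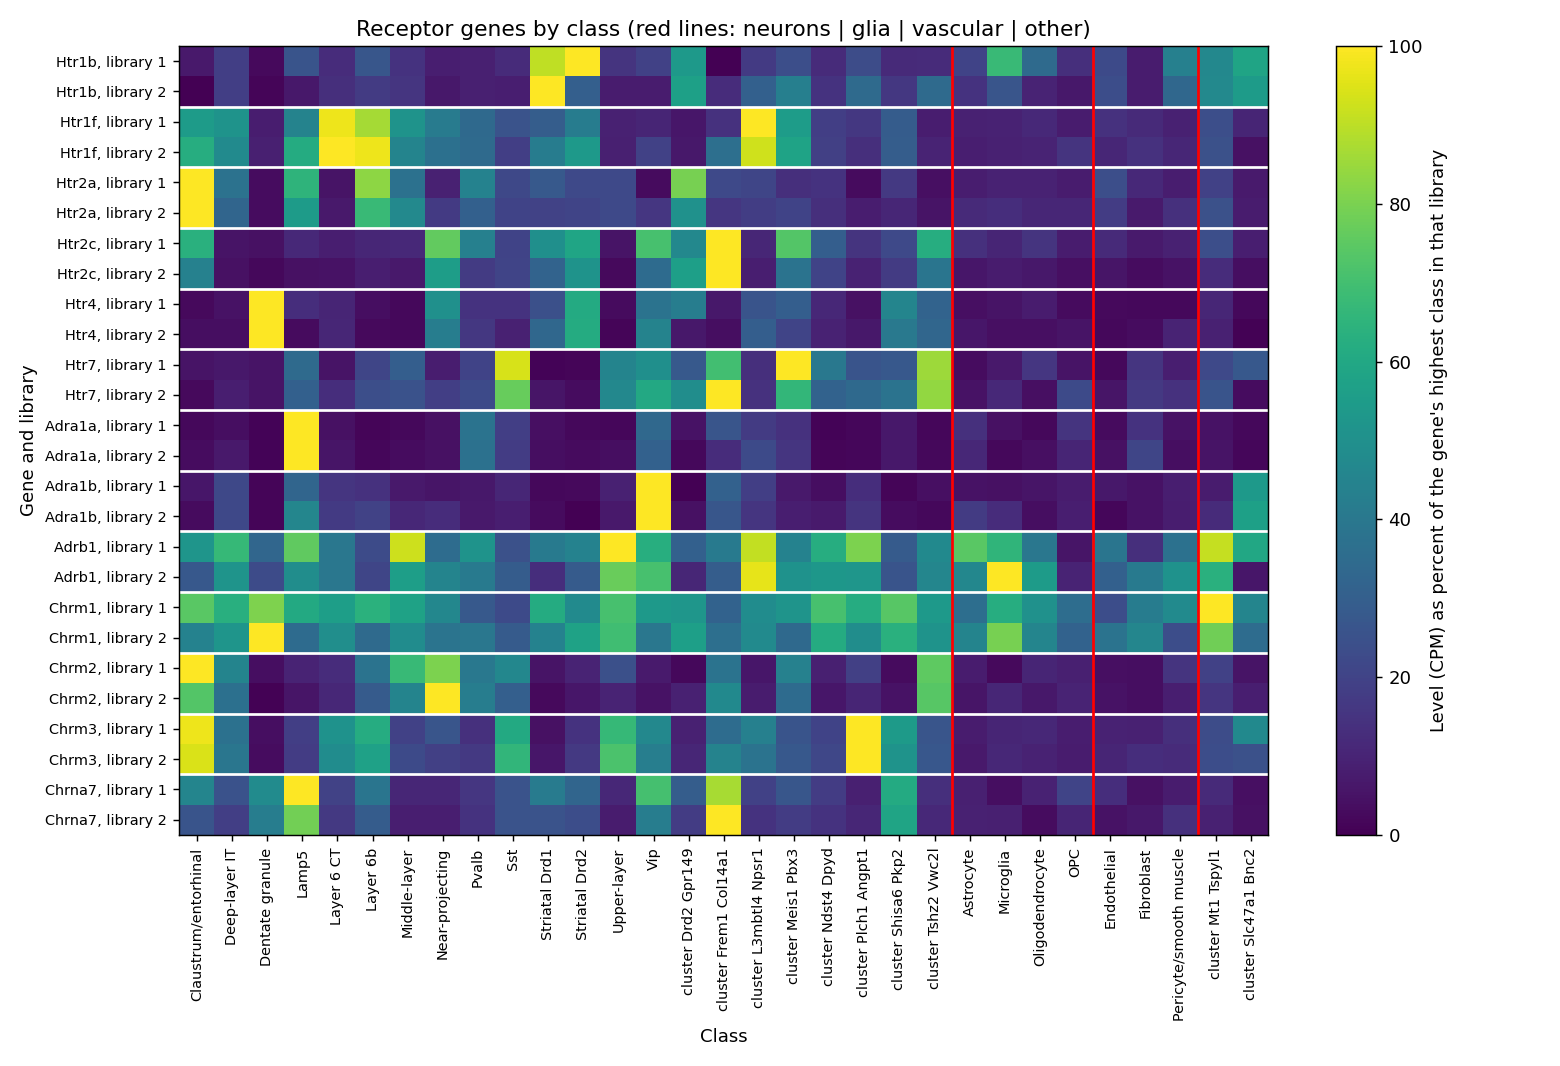
Level of 13 receptor genes (rows, library 1 above library 2) in the 31 compared classes (columns), as percent of the gene's highest class in that library. The 13 genes had at least 20 UMIs in each library in their highest class over both libraries together. Most genes are brightest in a few neuron columns, whereas Chrm1 and Adrb1 are spread over most columns, glia included.

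The genes with values in full were mostly long ones. Here the highest class of a gene is the class with its highest level over both libraries together. All 10 receptor genes that span 50 kb or more (68.7 to 485 kb, GENCODE vM21) had at least 20 UMIs there in each library. So did 3 of the 26 shorter genes (1.44 to 42.4 kb), namely Chrm1, Adrb1 and Htr1b. Of all 18945 genes with at least 20 UMIs in the matrix, 8350 did so. This count was not split by gene length, so no matching share is given for long or short genes. The limit of 50 kb was set after the lengths were seen and falls in the gap between Chrna9 and Htr2a. Totals in the matrix ran from 2253 to 104343 UMIs for the long genes and from 27 to 7317 for the short ones. In nuclei much of the RNA is unspliced, and a role of intron length in these totals was not tested. The highest class over both libraries was not always the highest in a single library. Another class was higher for Chrm1 in library 1 and for Htr7 in library 2. For the 10 long genes, levels in the highest class over both libraries were 4.28 to 22.3 times the median class in library 1. For those 3 short genes they were 1.51 to 4.87 times. In library 2 the same ratios were 2.97 to 22.7 and 2.14 to 6.52. Among the short genes that missed the limit of 20 UMIs, some lay outside these ranges. Htr1d had 29.4 and 46.1 times the median class, and Htr6 had 0.964 and 7.80 times. The ratios of the 3 short genes therefore do not describe short genes in general.

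Htr2c, the Gq-coupled serotonin 2C receptor (chromosome X, 146962513 to 147197277, plus strand, mm10), had by far its highest level in choroid plexus epithelium, the cells that make cerebrospinal fluid. This class had 23 and 13 nuclei and was too small to be among the 31. Its marker Ttr, the transthyretin gene, stood at 5492 and 5037 CPM there, and Otx2, a homeodomain factor gene of this epithelium, at 377 and 313 CPM. Htr2c reached 10967 CPM (interval 10361 to 11600) in library 1 and 14812 CPM (13945 to 15719) in library 2, or 22.6 and 20.3 times the highest compared class. A UMI of Htr2c was found in 100% of these nuclei in both libraries (exact lower bounds 85.2% and 75.3%), and also after each nucleus was thinned to 1500 UMIs. In microglia, taken here as a class without this receptor, the thinned share was 6.40% and 6.12%. The median depth was 4140 and 5158 UMIs in choroid plexus nuclei and 1690 and 1962 in microglia.

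Among the compared classes, Htr2c was highest in the interneuron cluster led by Frem1 and Col14a1, at 485 CPM (421 to 556) in library 1 and 730 CPM (635 to 836) in library 2. Near-projecting neurons had 368 and 406 CPM, the cluster led by Drd2 and Gpr149 had 226 and 413 CPM, striatal neurons with Drd2 had 284 and 374 CPM, and claustrum or entorhinal neurons had 307 and 321 CPM. Vip interneurons had 344 and 255 CPM. Upper-layer neurons, with 24.7 and 17.4 CPM, and dentate granule neurons, with 22.6 and 15.5 CPM, were the lowest of the 31 classes in both libraries. Levels in the remaining neuron classes lay between these ends.

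The 250 bases before the RefSeq start (GRCm38.p6) are shown for 3 serotonin receptor genes with class patterns of different kinds. These are Htr2c (choroid plexus), Htr1f (layer 6 and the cluster led by L3mbtl4 and Npsr1) and Htr2a (claustrum and layer 6b). Capitals mark TAATC on either strand, the core bound by homeodomain factors of the Otx type. Htr2c lies at chrX:146962263-146962512 (plus strand), Htr1f at chr16:65105785-65106034 (minus strand) and Htr2a at chr14:74640624-74640873 (plus strand).
Htr2c: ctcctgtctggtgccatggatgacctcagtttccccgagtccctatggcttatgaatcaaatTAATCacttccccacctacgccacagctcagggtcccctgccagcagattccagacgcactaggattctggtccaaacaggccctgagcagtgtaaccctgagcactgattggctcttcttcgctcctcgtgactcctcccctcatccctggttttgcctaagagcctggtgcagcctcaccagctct
Htr1f: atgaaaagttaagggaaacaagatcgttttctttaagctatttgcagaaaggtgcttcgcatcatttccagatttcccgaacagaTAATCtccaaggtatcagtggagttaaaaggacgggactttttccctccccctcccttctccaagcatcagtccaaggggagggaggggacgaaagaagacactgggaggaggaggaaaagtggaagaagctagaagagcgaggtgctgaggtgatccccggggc
Htr2a: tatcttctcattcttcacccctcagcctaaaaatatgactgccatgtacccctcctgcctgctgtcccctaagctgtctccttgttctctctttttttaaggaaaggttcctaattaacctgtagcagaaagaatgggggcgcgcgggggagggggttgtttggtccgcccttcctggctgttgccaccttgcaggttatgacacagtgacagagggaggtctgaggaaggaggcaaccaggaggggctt
The letters TAATC occurred once each in the Htr2c and Htr1f windows and 0 times in the Htr2a window. They occurred in 7 of 30 windows of the receptor genes (23.3%) and in 19.8% of all 32851 windows, so the match is a description of these letters only. RefSeq windows were found for 26 of the 36 genes.

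Htr2a, the serotonin 2A receptor on which psychedelic drugs act, was highest in claustrum or entorhinal neurons in both libraries, at 235 CPM (195 to 282) and 199 CPM (165 to 238). Layer 6b neurons had 196 and 135 CPM, Lamp5 interneurons 153 and 109 CPM, middle-layer neurons 87.6 and 93.9 CPM and Pvalb interneurons 104 and 60.7 CPM. Layer 6 corticothalamic neurons, which lie beside layer 6b, had 12.2 CPM (8.57 to 16.9) and 13.6 CPM (9.85 to 18.2). Layer 6b thus stood 15.99 and 9.93 times above layer 6 corticothalamic neurons in Htr2a, with intervals apart in each library. Dentate granule neurons were among the lowest, at 7.78 and 6.92 CPM.

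Htr1f, a Gi-coupled serotonin receptor, was high in layer 6 corticothalamic neurons, layer 6b neurons and the L3mbtl4 and Npsr1 cluster. It was low in upper-layer neurons. Layer 6 corticothalamic neurons had 610 CPM (583 to 639) and 593 CPM (567 to 620), the cluster led by L3mbtl4 and Npsr1 had 628 and 549 CPM, and layer 6b neurons had 544 and 577 CPM. These 3 levels were close, and their order changed between the libraries. In the L3mbtl4 and Npsr1 cluster, the layer 5 extratelencephalic list led with 4 markers without meeting the naming rule. Upper-layer neurons had 58.7 CPM (53.0 to 64.7) and 52.6 CPM (47.2 to 58.6), which was 10.4 and 11.3 times below layer 6 corticothalamic neurons and near the level in astrocytes, 58.5 and 49.5 CPM. Deep-layer intratelencephalic neurons, with 324 and 283 CPM, and middle-layer neurons, with 323 and 268 CPM, lay between.

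The other Gi-coupled serotonin receptor genes were sparse. Htr1b stood at 26.6 and 27.1 CPM in striatal neurons with Drd1, and at 29.4 and 8.18 CPM in those with Drd2. Htr1d (168 UMIs) was highest in striatal neurons with Drd1 in both libraries, at 22.2 and 17.7 CPM, from 30 and 15 UMIs. Htr1a, the autoreceptor of serotonin neurons and a receptor of hippocampal neurons, had 362 UMIs in all, and no class was highest in both libraries. Htr5a (495 UMIs) was highest in the Frem1 and Col14a1 cluster, from 8 and 2 UMIs, and Htr5b had 61 UMIs.

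Of the Gs-coupled genes, Htr4 marked dentate granule neurons, at 324 CPM (302 to 346) and 360 CPM (336 to 384). Striatal neurons with Drd2 came next with 197 and 221 CPM, against 79.0 and 120 CPM in those with Drd1. Near-projecting neurons had 162 and 152 CPM and Vip interneurons 123 and 160 CPM. Upper-layer neurons, at 9.46 and 5.17 CPM, and middle-layer neurons, at 7.03 and 7.53 CPM, did not exceed the level of any glial class. Dentate granule neurons, highest in Htr4, were the lowest class in both libraries for Htr2c and Chrm3.

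Htr7, also Gs-coupled, had its highest levels in several classes that were not separated: 74.8 and 41.6 CPM in the cluster led by Meis1 and Pbx3, 70.4 and 48.2 CPM in Sst interneurons, 63.7 and 52.7 CPM in the cluster led by Tshz2 and Vwc2l, and 52.0 and 62.9 CPM in the Frem1 and Col14a1 cluster. It was at 0.738 and 3.54 CPM in striatal neurons with Drd1. Htr6 (315 UMIs) was highest in striatal clusters in both libraries, but on 3 and 6 UMIs. Htr3a, the ion channel subunit that defines a group of cortical interneurons, is given as chosen after its values were seen. Of its 177 UMIs, 46 and 16 lay in Vip interneurons, at 66.0 CPM (48.3 to 88.1) and 33.7 CPM (19.3 to 54.8), and 33 and 8 in the Frem1 and Col14a1 cluster, at 78.0 and 28.0 CPM. In Lamp5 interneurons 1 and 0 UMIs were found. With a limit of 3 UMIs for a count of 0, in place of the exact interval, up to 5.27 CPM is allowed in library 2. The second subunit gene, Htr3b, had 3 UMIs in the matrix.

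**Figure D2:**
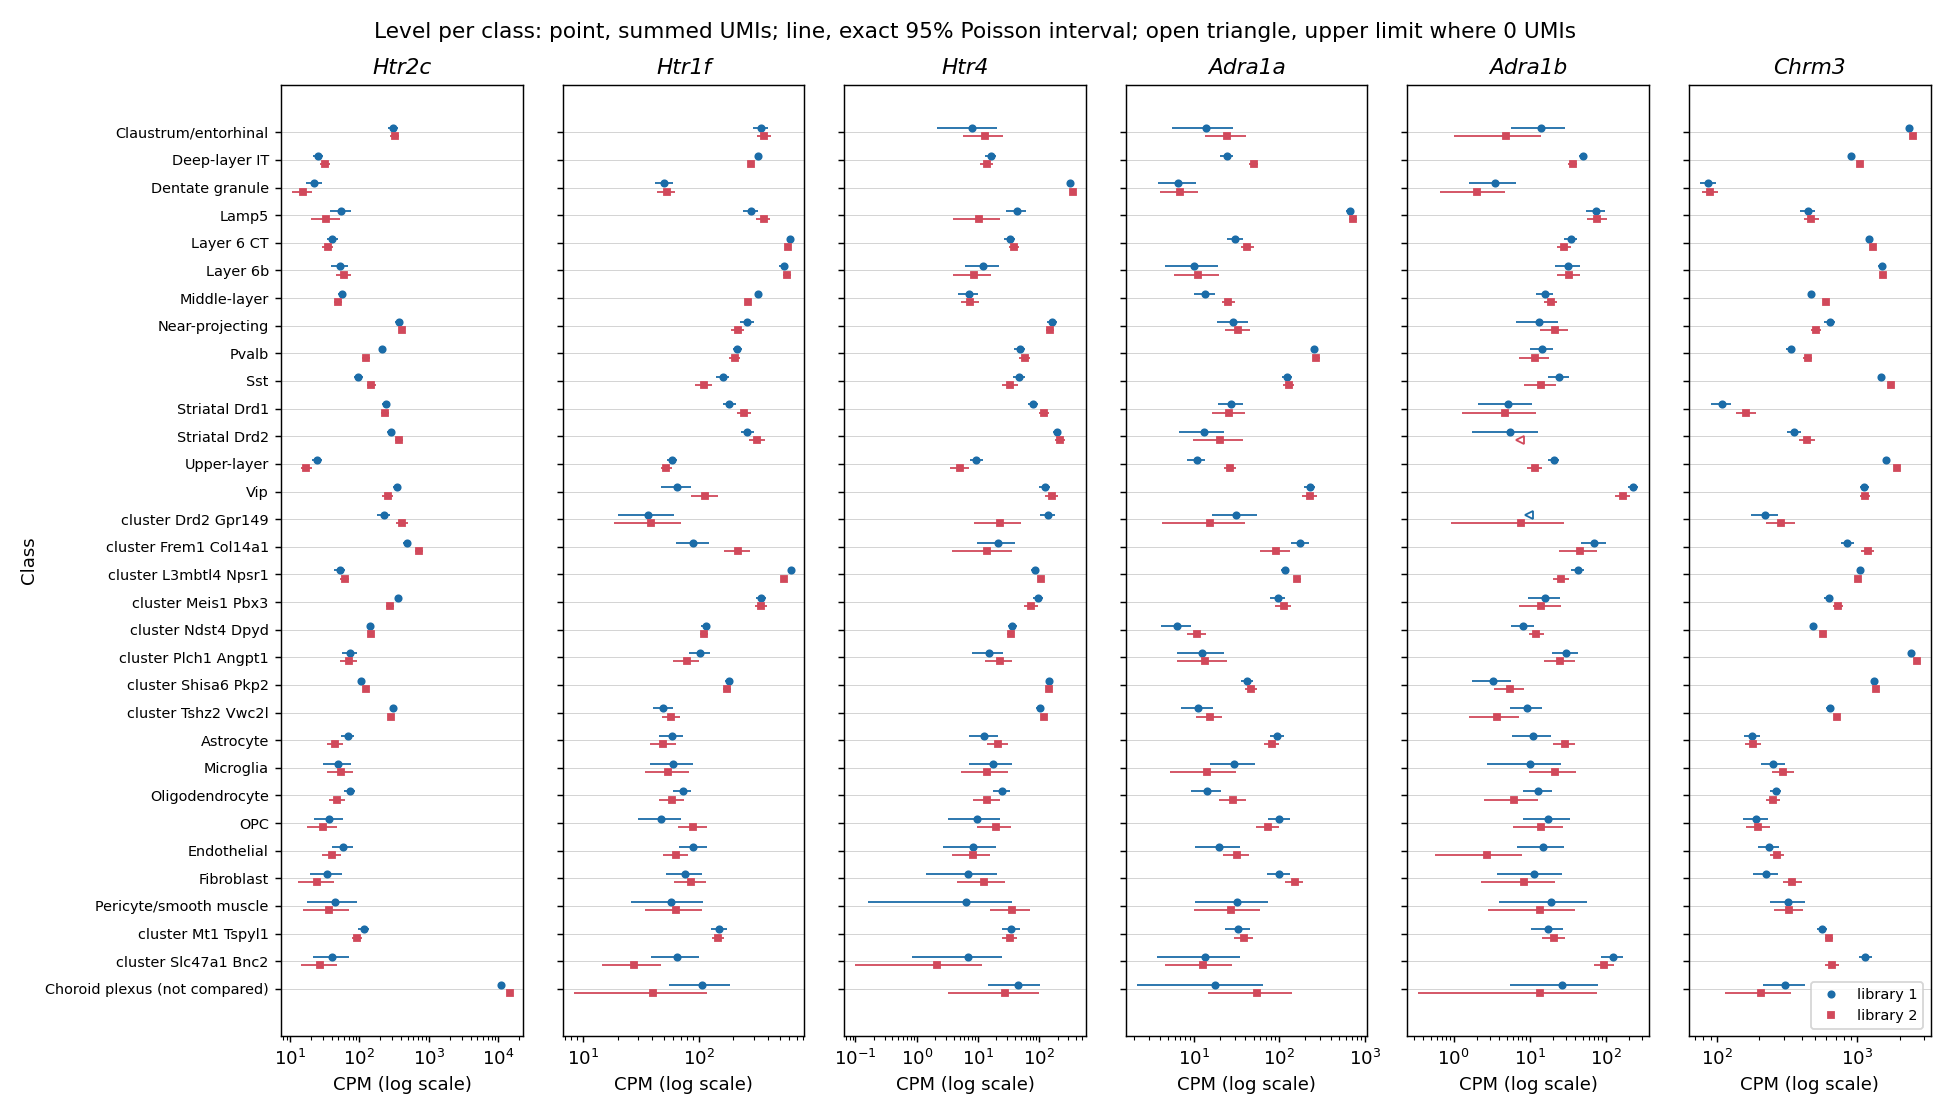
Level of 6 receptor genes in each class (CPM, log scale), with library 1 as circles and library 2 as squares, and exact 95% Poisson intervals as lines. Htr2c stands out in choroid plexus, Htr1f in layer 6 and the L3mbtl4 and Npsr1 cluster, and Htr4 in dentate granule neurons. Adra1a stands out in Lamp5 interneurons, Adra1b in Vip interneurons and Chrm3 over most excitatory classes but not dentate granule neurons.

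Of the Gq-coupled alpha-1 receptor genes for noradrenaline, Adra1a and Adra1b were highest in different interneuron classes. Adra1a (chromosome 14, 66635251 to 66771168, plus strand) was highest in Lamp5 interneurons, at 667 CPM (606 to 733) and 722 CPM (654 to 795). This was 2.63 and 2.68 times the level in Pvalb interneurons, 253 and 269 CPM, which came next, followed by Vip interneurons with 225 and 226 CPM and Sst interneurons with 124 and 128 CPM. Upper-layer neurons had 10.8 and 26.5 CPM and dentate granule neurons 6.61 and 6.92 CPM. After thinning to 1500 UMIs, 50.5% and 62.3% of Lamp5 nuclei had a UMI of Adra1a, against 4.07% and 2.04% of microglia. Without thinning these shares were 93.4% and 93.5%, against 5.31% and 2.44%, at median depths of 6820 and 6584 UMIs in Lamp5 interneurons.

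Adra1b (chromosome 11, 43774606 to 43901210, minus strand) was instead highest in Vip interneurons, at 228 CPM (194 to 267) and 169 CPM (134 to 210), which was 15.7 and 14.4 times the level in Pvalb interneurons. Lamp5 interneurons had 74.8 and 77.3 CPM and deep-layer intratelencephalic neurons 49.9 and 36.8 CPM. The second highest class was not neuronal: the cluster led by Slc47a1 and Bnc2, in which the fibroblast markers led without meeting the naming rule, had 123 CPM (86.4 to 171) and 95.6 CPM (69.7 to 128). Named fibroblasts had 11.5 and 8.35 CPM. The third alpha-1 gene, Adra1d (199 UMIs), was highest in middle-layer neurons in both libraries, at 3.77 and 6.34 CPM.

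The Gi-coupled alpha-2 genes gave few UMIs. Adra2a (307 UMIs) was highest in fibroblasts in both libraries, at 29.8 CPM (15.9 to 51.0) and 12.5 CPM (4.59 to 27.2), which rests on 13 and 6 UMIs. Adra2c (647 UMIs) had no class that was highest in both, and Adra2b had 9 UMIs. Of the Gs-coupled beta genes, Adrb1 stood at 31.2 and 34.4 CPM in the L3mbtl4 and Npsr1 cluster, at 34.3 and 27.6 CPM in upper-layer neurons and at 22.4 and 35.7 CPM in microglia. Oligodendrocyte precursors stood below, with 1.96 CPM (0.0497 to 10.9) and 3.52 CPM (0.426 to 12.7). Adrb3 had 127 UMIs.

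Of the muscarinic receptors for acetylcholine, the Gq-coupled Chrm3 gave 104343 UMIs. It was highest in the cluster led by Plch1 and Angpt1, at 2399 CPM (2297 to 2504) and 2649 CPM (2534 to 2768), next to claustrum or entorhinal neurons with 2337 CPM (2205 to 2474) and 2503 CPM (2379 to 2632). The intervals of these neighbours overlapped. Upper-layer neurons had 1607 and 1903 CPM, Sst interneurons 1461 and 1745 CPM and layer 6b neurons 1487 and 1511 CPM, whereas Pvalb interneurons had 336 and 442 CPM. Dentate granule neurons were lowest of all 31 classes, with 86.7 CPM (75.7 to 98.9) and 89.1 CPM (77.7 to 102), which was 27.7 and 29.7 times below the highest class and also below astrocytes, 178 and 181 CPM.

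Chrm2, the Gi-coupled M2 receptor, was highest in claustrum or entorhinal neurons in library 1, with 379 CPM (327 to 437), and in near-projecting neurons in library 2, with 332 CPM (299 to 368). In the other library these classes had 243 and 304 CPM. The Tshz2 and Vwc2l cluster followed with 285 and 245 CPM. Among interneurons, Sst (175 and 101 CPM) and Pvalb (151 and 140 CPM) stood above Lamp5 (38.2 and 19.3 CPM) and Vip (27.3 and 16.9 CPM). Dentate granule neurons were again among the lowest, at 13.6 and 2.44 CPM.

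Chrm1, the Gq-coupled M1 receptor of cortical and hippocampal pyramidal cells, stood at 97.2 and 95.6 CPM in dentate granule neurons and at 85.3 and 66.4 CPM in upper-layer neurons. In microglia it stood at 74.8 and 76.2 CPM, and in oligodendrocytes at 60.8 and 43.7 CPM. The highest class in library 1 was the cluster led by Mt1 and Tspyl1, at 120 CPM, whose median depth was 2108 and 2398 UMIs. Chrm4 had 28 UMIs and Chrm5 had 9.

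Among nicotinic subunit genes, Chrna7, which forms channels of a single subunit type, was highest in interneurons of the Lamp5 class, with 258 CPM (221 to 300) and 258 CPM (218 to 303), and of the Frem1 and Col14a1 cluster, with 225 CPM (182 to 275) and 329 CPM (265 to 402). The order of the pair changed between the libraries. The cluster led by Shisa6 and Pkp2, in which the hippocampal CA1 list led with 5 markers without meeting the naming rule, had 158 and 192 CPM, and dentate granule neurons had 125 and 139 CPM. Pvalb interneurons, with 40.7 and 47.9 CPM, lay 6.35 and 5.39 times below Lamp5 interneurons, with intervals apart in each library. Middle-layer neurons had 28.1 and 27.7 CPM.

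The subunits of the common heteromeric channel, Chrna4 (969 UMIs) and Chrnb2 (1099 UMIs), were low throughout. Chrna4 reached 36.9 CPM (25.4 to 51.8) in layer 6b neurons in library 1, against 14.1 CPM in library 2. Chrna5, an accessory subunit known from layer 6, had 215 UMIs and no class that was highest in both libraries. It is given as chosen after its values were seen, at 9.70 and 14.3 CPM in near-projecting and 10.2 and 8.32 CPM in layer 6 corticothalamic neurons. Chrna2 (38 UMIs) was highest in dentate granule neurons in both libraries, but on 1 and 8 UMIs. Chrnb1, a subunit of the muscle channel, had 127 UMIs and its highest levels in pericytes or smooth muscle in library 1, on 1 UMI, and in endothelial cells in library 2, on 13 UMIs. The remaining genes in use were Chrnb3 with 65 UMIs, Chrna9 with 47, Chrna3 with 28, Chrna1 with 27 and the antisense transcript Chrna1os with 72. Under 20 UMIs were Chrna6 with 15, Chrna10 with 11, Chrng with 8, Chrnb4 with 6, Chrne with 4 and Chrnd with 0, which allows up to 3.

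RNA of neuron markers was also found in glia and vessel cells. The 13 markers of excitatory and inhibitory neurons with at least 100 UMIs (without markers that glia also express) stood in astrocytes at a median of 75.5% and 97.7% of their level over all neurons, and in microglia at 84.6% and 150%. The lowest and highest marker were at 17.4% and 163% in astrocytes of library 1, and at 30.3% and 164% in library 2. The part of carried-over RNA in the receptor levels was not tested. Chrm1 lay within the range of the markers in every glial and vascular class, as did Adrb1 in astrocytes, microglia and oligodendrocytes. This range is wide, and whether these levels are expression by the glia and vessel cells themselves was not tested.

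Adra1a differed between non-neuronal classes by more than counting error. Fibroblasts had 98.7 CPM (71.4 to 133) and 150 CPM (118 to 189), astrocytes 93.3 CPM (76.7 to 112) and 80.9 CPM (66.0 to 98.1), and oligodendrocyte precursors 100 CPM (74.5 to 132) and 73.9 CPM (53.3 to 99.9). Microglia had 29.9 CPM (15.5 to 52.2) and 14.3 CPM (5.24 to 31.1). The level in oligodendrocytes was 14.2 and 28.5 CPM, and in endothelial cells the intervals were 10.3 to 34.9 CPM and 22.2 to 44.3 CPM. Thus astrocytes, precursors and fibroblasts lay above microglia, oligodendrocytes and endothelial cells in each library with no overlap of intervals. Pericytes or smooth muscle, with 31.9 CPM (10.4 to 74.5) and 27.3 CPM (10.0 to 59.3) from 5 and 6 UMIs, could not be separated from fibroblasts in library 1 or from precursors in library 2. As a share of the level over all neurons, Adra1a in fibroblasts reached 180% and 253%, above the highest neuron marker there (142% in both libraries). In astrocytes it reached 171% and 136%, against 163% and 164% for the highest marker, and in precursors 183% and 125%, against 129% and 147%. Adra1b in the Slc47a1 and Bnc2 cluster was at 493% and 498% of the neuronal level, above the highest neuron marker there (152% and 148%). Chrm3 in that cluster was at 1142 CPM (1022 to 1271) and 661 CPM (589 to 738), against 223 and 344 CPM in fibroblasts. This was 123% and 64.4% of its level over all neurons, within the range of the neuron markers there. Htr2a in endothelial cells, at 56.6 CPM (39.2 to 79.1) and 35.5 CPM (25.2 to 48.5), overlapped its interval in microglia.

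**Figure D3:**
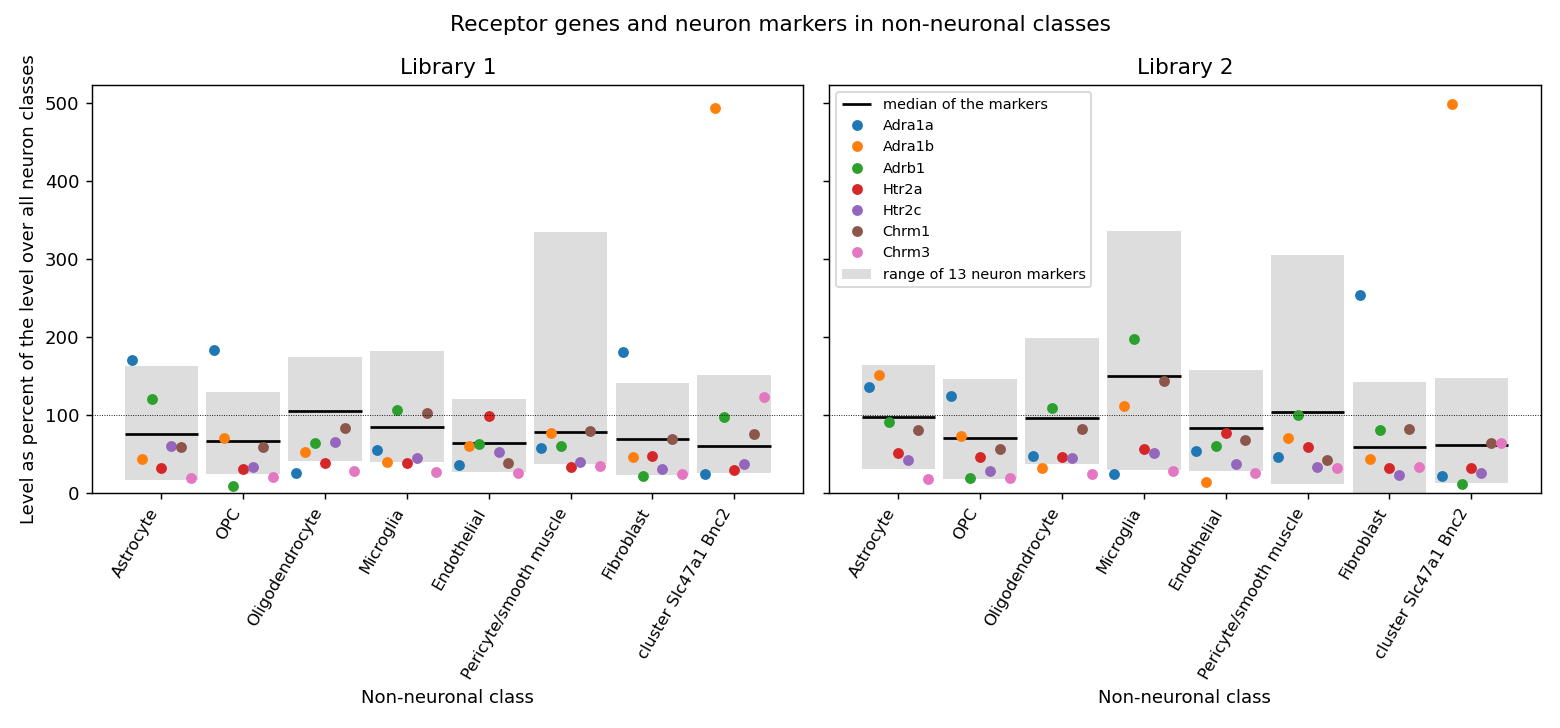
Level of 7 receptor genes in non-neuronal classes as percent of their level over all neuron classes (points), beside the range (grey bars) and median (black lines) of 13 neuron markers, for each library. Adra1a in fibroblasts and Adra1b in the Slc47a1 and Bnc2 cluster lie above the grey bars in both libraries, while Htr2c lies within them.

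Over all barcodes, 7 of the 36 genes (19.4%) differed 1.5 times or more between the libraries with intervals apart, against 27.1% of all genes. Htr2b, Chrnb1, Chrna2 and Chrm4 were higher in library 2, and Htr1d, Htr3a and Htr5a in library 1. The difference was largest for Htr2b, with 64 and 575 UMIs or 1.10 CPM (0.848 to 1.41) and 9.50 CPM (8.74 to 10.3), a ratio of 8.62. It was seen in neurons and glia alike: 1.18 and 9.71 CPM in upper-layer neurons, 0.849 and 9.43 CPM in astrocytes and 0.778 and 6.10 CPM in dentate granule neurons. Htr2b lies on the minus strand of chromosome 1 (86099026 to 86111970) wholly inside Psmd1, a proteasome subunit gene on the plus strand, which had 87.5 and 73.5 CPM. Whether the counting used strand is not given in the sources used here, and a part of Psmd1 RNA in the Htr2b counts was not tested. In all, 7 of the 36 genes were overlapped by another counted gene on the opposite strand and 0 by one on the same strand; the others were Adra1d, Adrb3, Chrm2, Chrm3, Chrnb2 and Htr1b.

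The highest class over both libraries together held at least 20 UMIs in each library for 13 genes. Of these, 2 differed there 1.5 times or more between the libraries with intervals apart (15.4%, against 14.0% of 8350 such genes). Htr2c in the Frem1 and Col14a1 cluster was 0.664 times as high in library 1 as in library 2, and Htr7 in the Meis1 and Pbx3 cluster 1.80 times as high. For 6 of the 13 the same class was highest in both libraries (46.2%, against 56.0%).

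**Figure D4:**
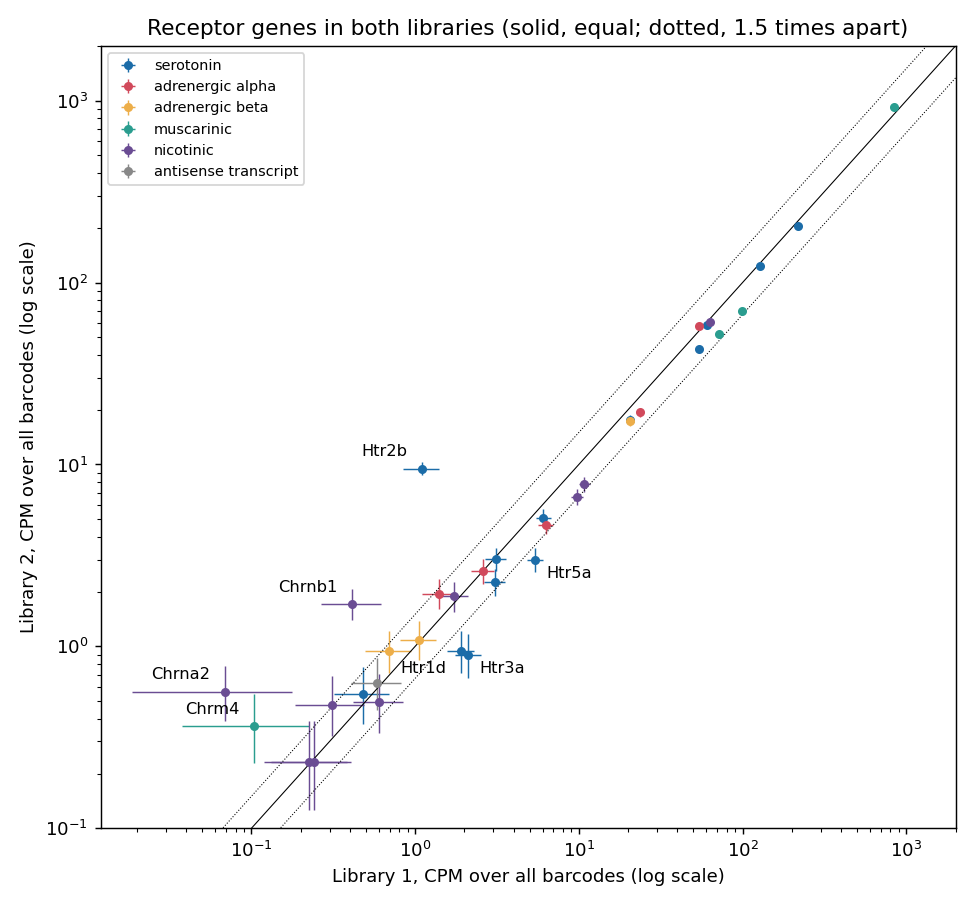
Level of the 36 receptor genes over all barcodes in library 1 (horizontal) and library 2 (vertical), in CPM on log scales, with exact 95% Poisson intervals, coloured by family. Most genes lie between the dotted lines of 1.5 times, and the 7 named genes lie outside them with intervals apart, Htr2b farthest.

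Genes that make, carry and break down the transmitters were read from lists beside the receptors. The neurons that release serotonin and noradrenaline were not seen: their markers Tph2, Slc6a4, Dbh, Slc6a2 and Th had 61, 8, 12, 8 and 16 UMIs, and Fev had 0. Genes of cholinergic neurons left a trace. Chat, which makes acetylcholine, was highest in Vip interneurons at 21.5 and 33.7 CPM, and Slc5a7, the choline transporter, at 33.0 and 27.4 CPM, while the vesicular transporter gene Slc18a3 had 0 UMIs. Vip interneurons held 31 of the 102 Chat UMIs and 36 of the 138 Slc5a7 UMIs, so most lay elsewhere. In the Meis1 and Pbx3 cluster, the cholinergic neuron list led with 4 markers without meeting the naming rule.

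Of 14 genes for the making, storage, uptake and breakdown of monoamines 9 could be used. In both libraries 3 of the 9 were highest in a neuron class, against 23.5% of all genes, and 5 in a glial or vascular class, against 34.9%. Ddc, which makes serotonin and dopamine from their precursors, was highest in endothelial cells (79.9 and 69.1 CPM), Maob, monoamine oxidase B, in astrocytes (78.9 and 73.8 CPM), and Slc22a3, a low-affinity monoamine transporter, in the striatal cluster led by Drd2 and Gpr149 (28.9 and 38.6 CPM). Of 8 acetylcholine genes 7 could be used, with 4 in neurons and 2 in glia or vessels, beside the same shares of all genes; Prima1, the membrane anchor of acetylcholinesterase, was highest in oligodendrocytes (47.7 and 101 CPM).

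Of the 10 nicotinic receptor partners, 3 were highest in neurons and 4 in glia or vessels in both libraries, which is near the shares of all genes (23.5% and 34.9%). Lypd6, a modulator of nicotinic receptors, was highest in astrocytes (187 and 141 CPM), and Musk, a kinase of the muscle synapse, in fibroblasts (36.7 and 41.7 CPM). Rapsn (35 UMIs) was highest in pericytes or smooth muscle in library 1 only, at 12.8 CPM, with 0 CPM there in library 2. That class held 156579 UMIs of all genes in library 1, so the level of Rapsn rests on very few UMIs. Of 26 G protein subunits and receptor partners 24 could be used: 2 were highest in neurons and 14 in glia or vessels, against 23.5% and 34.9% of all genes. Plcb2, a phospholipase downstream of Gq, was highest in microglia (32.4 and 28.6 CPM), and Gna14, a Gq-type alpha subunit (48.0 and 25.5 CPM), and Plcb3 (41.1 and 25.5 CPM) were highest in the Slc47a1 and Bnc2 cluster.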

How the data were processed

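Single nuclei of frozen mouse cortex were profiled with the 10x Genomics Chromium system, in 2 samples that pool 3 animals each. The deposited matrix holds whole-number UMI counts per gene and barcode, not normalized. Cell Ranger 3.1.0 made it per the file headers, while the submitters' processing notes list Cell Ranger 2.0.1 with Seurat 3.1, R 4.0.2 and mm10.

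Nuclei with at least 200 genes, at most 5% mitochondrial UMIs and a Scrublet score under 0.2 were kept. The score limit was set by hand, since the automatic threshold marked 1 and 0 barcodes. Clustering used scanpy 1.11.5 (2000 variable genes without the receptor genes, 30 components, 15 neighbours, Leiden resolution 1, with sub-clustering at 0.3). Naming thresholds were set after the clusters were seen. Members and gene lists were chosen with earlier results of these data known. Class levels are summed UMIs as CPM with exact Poisson intervals, and shares have Clopper-Pearson intervals at 95%. The script was tested on simulated data.

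Receptor genes with 20 UMIs in each library in their highest class over both libraries together are described in full. Other genes with at least 20 UMIs are described by their total and any shared highest class, and the rest by UMIs only. Of each list of other genes, the 3 with the largest ratio of highest to median class are named. Alternatives changed the doublet, mitochondrial and class limits, the resolution, the weighting and the depth. The values of 1 receptor gene of the set are not reported here.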

Additional observations from a re-analysis of the deposited data

How the results depend on the processing

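No paired analysis was possible because each age has 1 sample and the labels tie no barcode suffix of the shared matrix to a sample. The count of receptor genes highest in a neuron class in both libraries was 23 and became 15 without a mitochondrial limit. It lay between 19 and 26 under the other alternatives. The count for glial or vascular classes was 2. It became 0 after thinning to 1500 UMIs, 4 with classes of at least 50 nuclei and 7 with named classes only. The count with the same highest class was 11. It became 19 without a mitochondrial limit, 6 after thinning and 18 with named classes only. The restriction to named classes was chosen after seeing the data and leaves fewer classes to be highest. For the other changes the cause was not tested. Of 132 alternative values for the level of a gene in its highest class over both libraries, 104 lay inside the interval of the main value and 28 outside. The minimum of 50 UMIs and the limit of 50 nuclei per class cannot change such a level. Their values are among the 104 by construction. Alternatives in which the class was missing are not among the 132. None was more than 1.5 times away (ratios 0.683 to 1.37). The classes highest for Adra1a, Adra1b, Htr1f and Chrm3 stayed highest in every alternative that gave a value. With the main setting counted, Chrm1 kept its highest class in 9 of 13 settings, Htr7 in 9 of 12 and Chrna7 in 5 of 7. The Frem1 and Col14a1 cluster gave no value in 6 alternatives. The limit of 50 nuclei and the restriction to named classes left it out by rule. In the others, which clustered the nuclei anew, it had no match. Of the 36 genes, 23 had fewer than 20 UMIs in at least 1 library in their highest class over both libraries together.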
